A study of Mus musculus with 8 samples.

Results

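The difference in Hi-C compartment score between mouse embryonic stem cells (mESCs) lacking SUV39H1 and SUV39H2 and their wild-type (WT) counterparts was followed along the autosomes, without any inhibitor. The members were the 100-kb bins that carried a non-zero score both in Suv39h DKO and in Suv39h WT, which were 23986 of the 24005 bins scored in any of the 8 libraries of the series. Of the 19 other bins, 9 were scored in Suv39h WT alone, 5 in Suv39h DKO alone and 5 in neither. The change of a bin is its Suv39h DKO score minus its Suv39h WT score.

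SUV39H1 and SUV39H2 are histone methyltransferases that place trimethylation on lysine 9 of histone H3 (H3K9me3), above all at the satellite repeats around centromeres and at repeated elements, where HP1 proteins bind the mark. Hi-C counts how often pairs of loci touch in fixed nuclei, and the main axis of that contact pattern divides each chromosome into an active A compartment and an inactive B compartment. H3K9-methylated chromatin is mostly found in B.

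The study assayed mESCs deficient in H3K9 methyltransferases. The compared cells were ADF1-26, a WT line (Suv39h WT), and ADF157, a Suv39h1/2 double knockout line (Suv39h DKO), both cultured on gelatin with serum, serum replacement and LIF and given no drug. The same lines after 2 µM UNC0642, which blocks the methyltransferases G9a and GLP, for 3 days (Suv39h WT + UNC and Suv39h DKO + UNC) formed a further pair, called the UNC0642 pair here. It shares no library with the untreated pair. Setdb1 WT, the untreated cells of the Setdb1 conditional knockout line #33-6, served as a WT library outside both differences. Where SETDB1 loss is shown beside SUV39H1/2 loss, Setdb1 KO cells of that line had been given 800 nM 4-hydroxytamoxifen (4-OHT), which removes SETDB1, for 5 days, Setdb1 KO + UNC cells 4-OHT for 2 days ahead of UNC0642, and Setdb1 WT + UNC cells UNC0642 alone.

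Each group had 1 library, so no difference below has a replicate check, no test was made, and whether the changes exceed the spread between repeats of one group was not tested. WT and DKO were separate clones, so genotype and clone cannot be told apart in either pair. Suv39h1 lies on the X chromosome, which was not scored, and Hi-C scores would not show a deleted exon, so the labels were not checked against the targeted genes. The labelled cell type was looked at only through compartments. All 21 core pluripotency genes lay in A in both libraries, as did 20 of 26 regulators of differentiated lineages.

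Loss of SUV39H1/2 left the compartment map close to that of WT. Across bins, the scores of Suv39h DKO and Suv39h WT correlated at r = 0.979, with 0.959 on chromosome 1 as the lowest value of an autosome and 0.988 on chromosome 19 as the highest. The change had a median of 2.7e-05 and an SD of 0.00564, and 66.1% of bins moved by less than 0.005 either way. Its extremes were -0.0494 and 0.0400. By comparison the SD was 0.00546 in the UNC0642 pair and 0.00679 between the untreated WT libraries of the Suv39h and Setdb1 lines, so knockout and WT were closer to each other than were these unrelated WT libraries.

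A bin was said to rise or fall when its score changed by at least 0.01. In the untreated pair 875 bins (3.65%) rose and 900 (3.75%) fell. The bins nearest to this limit had changes of 0.010003 and 0.009998 on the rising side and -0.010004 and -0.009998 on the falling side. In the UNC0642 pair 2.98% of bins rose and 3.86% fell. Between Suv39h WT and Setdb1 WT, 5.67% of bins were higher and 6.29% lower in Suv39h WT by this step.

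Most of these changes were scattered single bins. The change of a bin correlated at r = 0.153 with that of its neighbour over 23940 neighbouring pairs, at 0.0977 with that of the bin 0.5 Mb away and at 0.0182 at 5 Mb, whereas the Suv39h WT score itself correlated at 0.933 between neighbours. When scores were averaged over 500 kb, 10 averaged bins (0.208%) rose and 20 (0.416%) fell. Only 18.3% of rising bins and 22.1% of falling bins lay in runs of at least 2 adjacent bins.

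The direction of the change followed the starting score. In bins of weak A score (0 to 0.01 in Suv39h WT), the mean change was 0.00108, above 0 on 18 of 19 autosomes, and 5.90% of bins rose against 3.33% that fell. In bins of strong A score (0.03 to 0.05) it was -0.00138, below 0 on all 19 autosomes, and 1.36% rose against 5.75% that fell. At 0.05 and over the mean change was -0.00183, below 0 on 17 of the 18 autosomes with such bins, and 0.339% rose against 5.43% that fell. A score class taken from Suv39h WT shares that library with the change, so chance highs and lows of Suv39h WT enter both.

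The classes were therefore also set by Setdb1 WT. The mean change was then 0.000974 at scores from -0.01 to 0, above 0 on 17 of 19 autosomes, and 0.00110 at scores from 0 to 0.01, above 0 on 18 of 19. It was -0.000652 at 0.03 to 0.05, below 0 on 16 of 19 autosomes, and -0.000881 under -0.03, below 0 on all 19. At 0.05 and over it was -0.000528, below 0 on 9 of the 16 autosomes with such bins. Deep B therefore changed sign with the library that set the class, since under Suv39h WT classes its mean change was 0.000425. The mean change was above 0 at the weak scores on either side of 0, and below 0 at the strong A scores, under both choices of library. For the weak scores this did not hold under quantile normalization, which gives the libraries 1 common set of score values and took the class from 0 to 0.01 of Suv39h WT to -9.91e-05 and the class from -0.01 to 0 to -0.000397. The latter was also below 0, at -9.69e-05, when the chromosome mean implied by an eigenvector of unit length was added back to each library.

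**Figure D1:**
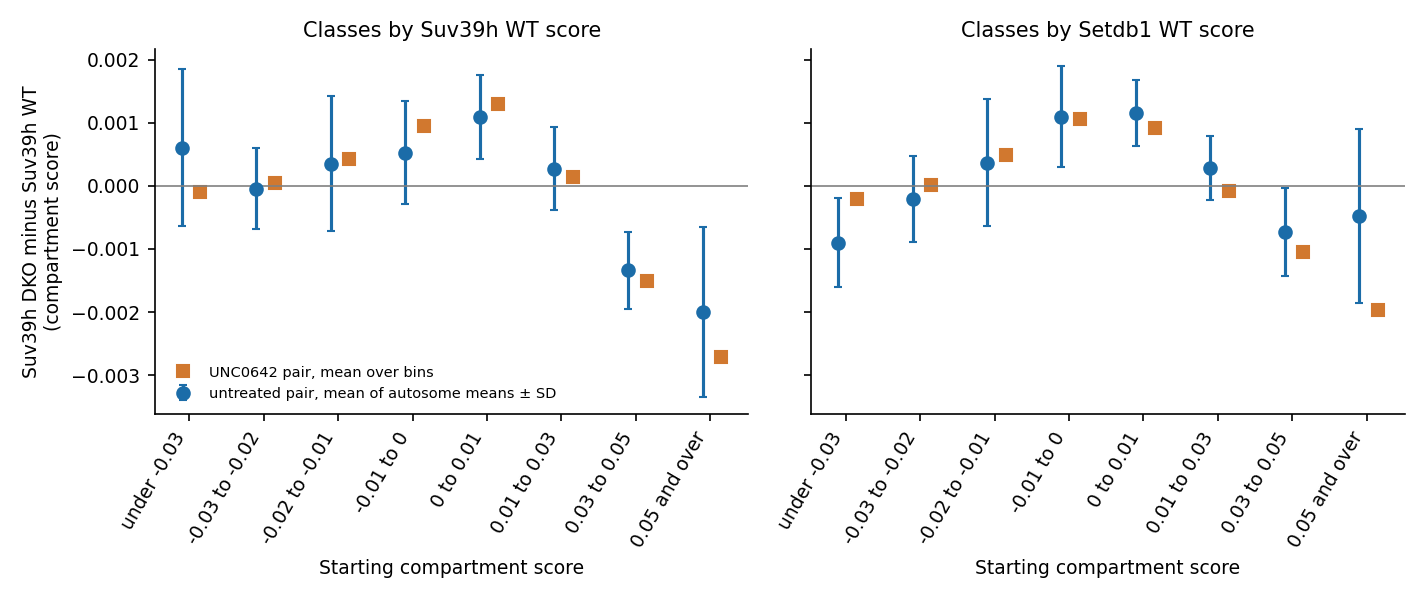
Mean change in compartment score (Suv39h DKO minus Suv39h WT) by starting score, with classes set by Suv39h WT (left) or Setdb1 WT (right). Circles are means of the autosome means of the untreated pair with SD over autosomes, and squares are means over bins of the UNC0642 pair; in both panels scores near 0 lie above the zero line and scores of 0.03 and over lie below it.

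With classes set by Suv39h WT, the UNC0642 pair had the same signs from -0.02 upwards but not below. Over classes of Suv39h WT, a library outside that pair, its mean change was 0.000953 at -0.01 to 0 and 0.00130 at 0 to 0.01, above 0 on 17 and 19 autosomes. It was -0.00151 at 0.03 to 0.05, where no autosome lay above 0, and -0.00271 at 0.05 and over. Under -0.03 it was -9.93e-05, above 0 on 8 of 19 autosomes, and at -0.03 to -0.02 it was 4.22e-05, both of the opposite sign to the untreated pair. With classes set by Setdb1 WT, the UNC0642 pair had -0.000217 under -0.03, the sign of the untreated pair. The signs were then opposite at -0.03 to -0.02 (1.46e-05, against -0.000319 untreated) and at 0.01 to 0.03 (-8.8e-05, against 0.000257).

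The change also ran with the base and repeat composition of the bin. Bins were divided into quintiles (5 sets of nearly equal size) by GC content and by the share of bases that the reference assembly marks as repeats. In the quintile lowest in GC (median 37.2%) the mean change was -0.00133, below 0 on all 19 autosomes, and 1.65% of bins rose against 4.77% that fell. In the fourth quintile (median 43.9%) it was 0.000995, above 0 on 18 of 19 autosomes, and 5.48% rose against 3.19% that fell. The highest quintile, with a mean change of 0.000453, lay below the fourth. With the implied chromosome mean added back, the fourth quintile had 0.000488 and the highest -0.000105. In the quintile lowest in repeats (median 20.9% of bases) the mean change was 0.000790, above 0 on all 19 autosomes, and 0.000261 with the implied mean added. In the quintile highest in repeats (median 49.0%) it was -0.000642, below 0 on 16 of 19, and 5.63% of its bins fell. It was -0.000143 with the implied mean subtracted.

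These means are small beside the SD of single bins (0.00564). The same order appeared in the UNC0642 pair, with -0.00139 in the quintile lowest in GC, 0.00128 in the quintile lowest in repeats (above 0 on all 19 autosomes) and -0.000883 in the quintile highest in repeats (below 0 on 18). Loss of SETDB1, a further H3K9 methyltransferase, gave other values in its own line without UNC0642. There the change (Setdb1 KO minus Setdb1 WT) was -0.000379 in the quintile lowest in repeats and 0.000908 in the highest, below 0 on 15 and above 0 on 18 autosomes. With UNC0642 (Setdb1 KO + UNC minus Setdb1 WT + UNC) it was -0.00402 and 0.00373, below and above 0 on all 19 autosomes. Whether the pairs differed was not tested. The untreated WT libraries also differed along repeat share. In the quintile lowest in repeats Suv39h WT averaged 0.0125 and Setdb1 WT 0.0110, and in the highest -0.0197 and -0.0188.

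**Figure D2:**
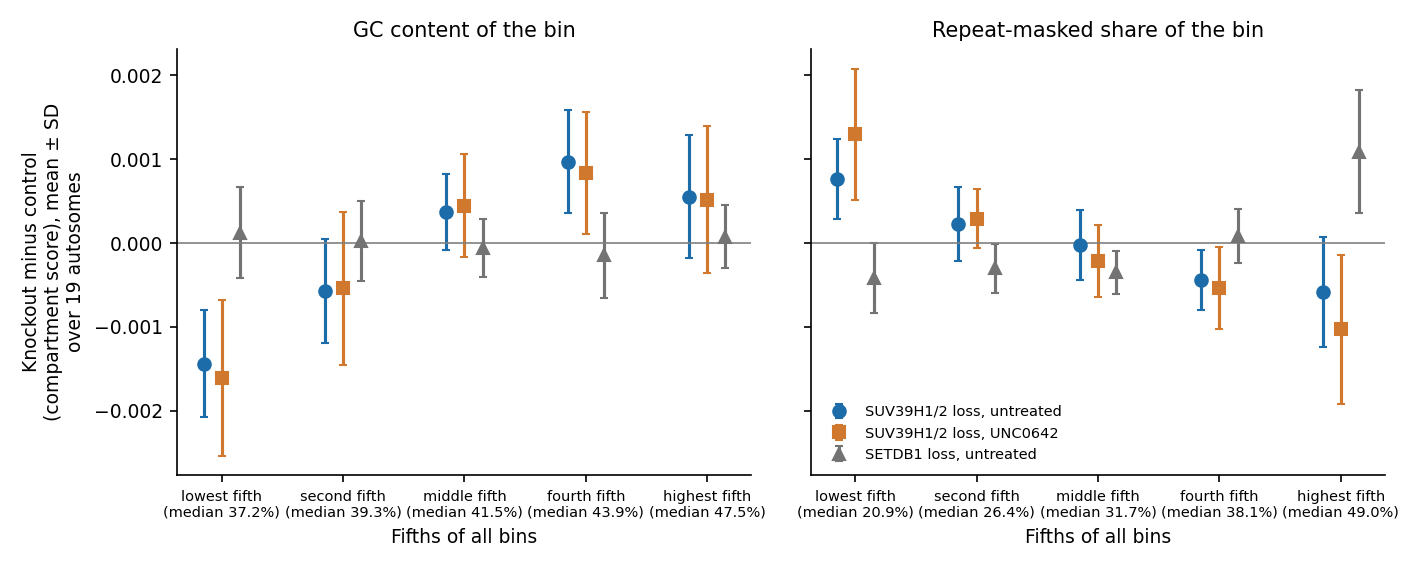
Mean change in compartment score by quintiles of GC content (left) and of repeat-masked share (right), as the mean of autosome means with SD over the 19 autosomes, for SUV39H1/2 loss without and with UNC0642 and for SETDB1 loss without UNC0642. Both SUV39H1/2 pairs lie below 0 in AT-rich and in repeat-rich bins, and the SETDB1 pair lies above 0 in the most repeat-rich quintile.

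Compartment and composition go together in the genome, so each was looked at within the other. Among bins in A by Setdb1 WT, the mean change was -0.00404 in the quintile lowest in GC (142 bins) and 0.000429 in the fourth quintile. Among bins in B it was -0.00125 in the quintile lowest in GC, below 0 on all 19 autosomes, 0.000930 in the middle quintile, above 0 on all 19, and 0.00257 in the fourth quintile. Repeat share showed a like order in B, with 0.00134 in the quintile lowest in repeats, above 0 on 18 of 19 autosomes, and -0.000629 in the highest. In the highest GC quintile of B, with 280 bins, it was 0.00247, close to the fourth by bins and above it, at 0.00366 against 0.00276, as a mean over autosomes. Of the GC sets, A chromatin of the lowest quintile had the lowest mean change by either measure.

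GC content and repeat share are themselves related. Within the quintile lowest in GC, the repeat-richest bins differed from the repeat-poorest by 0.000448, above 0 on 12 of 19 autosomes, so repeat share showed no fall there. Within the highest GC quintile the same difference was -0.00116, below 0 on 15 of 19 autosomes. Within every quintile of repeat share, bins of the highest GC quintile lay above those of the lowest, by 0.000425 to 0.00181 and on 14 to 16 of the 19 autosomes.

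Compartment switches, meaning a change of sign, were mostly small movements at domain borders. In Suv39h DKO 699 bins (2.91%, 95% Wilson interval 2.71% to 3.14%) went from B to A and 411 (1.71%, 1.56% to 1.89%) from A to B, and A bins went from 10746 (44.8%) to 11034 (46.0%). This difference between the directions depended on the scaling, since each share was 2.28% after quantile normalization, and the shares were 2.68% and 2.56% with the implied chromosome mean added. The intervals treat bins as independent, which neighbours are not, and cover no variation between cultures. Over the bins that went from B to A, the median score was -0.00294 in Suv39h WT and 0.00316 in Suv39h DKO, and the median change was 0.00719. Of the bins that went from B to A, 71.5% had a Suv39h WT score within 0.005 of 0, against 10.6% of all bins. By 0.01 or more rose 26.5% of them, against 3.65% of all bins. At a domain border of Suv39h WT lay 70.1% of the B to A bins, 75.9% of the A to B bins and 14.4% of all bins.

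Borders in turn numbered 1978 in Suv39h WT and 1915 in Suv39h DKO. Of the Suv39h WT borders, 55.7% were at the same place in Suv39h DKO and 78.7% within 1 bin. The median A domain was 0.4 Mb long and the median B domain 0.5 Mb in both libraries. Of the B to A bins, 28.2% also went from B to A in the UNC0642 pair and 8.73% went the opposite way, against 2.87% and 1.72% of all bins. Of the A to B bins, 18.7% also went from A to B there and 16.1% from B to A, and their median change there was -0.000183. Switching bins mostly lie near 0, where a sign changes easily, so all bins are not a like base for these shares. Bins near 0 that did not switch were not looked at apart.

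Bins near the chromosome start were examined because mouse autosomes have their centromere, and its SUV39H-dependent satellite repeats, at that end. The satellites themselves are not in the scored bins. Among the 1320 bins of the first 10 Mb, 4.24% rose and 8.03% fell, with a mean change of -0.000745, below 0 on 13 of 19 autosomes. From 10 to 20 Mb 6.75% of bins fell, and at 80 Mb and over 2.18% fell, with a mean change of 0.000384, which was -9.55e-05 with the implied chromosome mean added back and 0.000231 without chromosome 1. Chromosome 1 carried much of the mean near the start. Without it, the share that fell was 5.60% in the first 10 Mb and 5.23% from 10 to 20 Mb, and the mean change in the first 10 Mb was -0.000246, while over all autosomes it was -0.000200 with the implied mean subtracted. The untreated WT libraries also differed in the first 10 Mb, where Suv39h WT averaged 0.00193 and Setdb1 WT 0.00361. Without chromosome 1 these averages were 0.00054 and 0.00324. With UNC0642 the mean change of the first 10 Mb was -0.0003 over all autosomes, above 0 on 10 of 19, and 0.00029 without chromosome 1, where 4.57% of bins rose and 4.49% fell. From 10 to 20 Mb it was -0.00111 there, above 0 on 4 of 19 autosomes, and -0.000875 without chromosome 1, where 6.90% of bins fell. In the last 5 Mb of the chromosomes the untreated pair had a mean change of -0.000104, above 0 on 12 of 19 autosomes, and 3.23% of bins rose and 3.77% fell, while with UNC0642 the mean was 0.00141, above 0 on 18 of 19. Between 5 and 10 Mb from the chromosome end, the mean change was 0.00108, above 0 on 14 of 19 autosomes.

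The first 30 Mb of chromosome 1 held a broad block of falling bins. From 3 to 10 Mb, Suv39h WT averaged 0.0269 and Suv39h DKO 0.0172. With UNC0642 the averages were 0.0157 for WT and 0.00484 for DKO. The Setdb1 line averaged 0.0101 untreated, 0.0104 after SETDB1 loss, 0.00511 with UNC0642 and 0.0108 with both. Suv39h WT was thus the highest of the 8 libraries, and Suv39h DKO lay between it and the untreated Setdb1 line. Of the 70 bins there, 36 fell and 0 rose in the untreated pair. The mean change was -0.00966 in the untreated pair and -0.0108 in the UNC0642 pair. It was -0.00580 from 10 to 20 Mb, -0.00480 from 20 to 30 Mb and -0.00114 from 30 to 40 Mb, and beyond 40 Mb it was 0.00119. Because the scores of a chromosome average 0, the fall at the start and the rise in the rest of the chromosome are not independent.

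**Figure D3:**
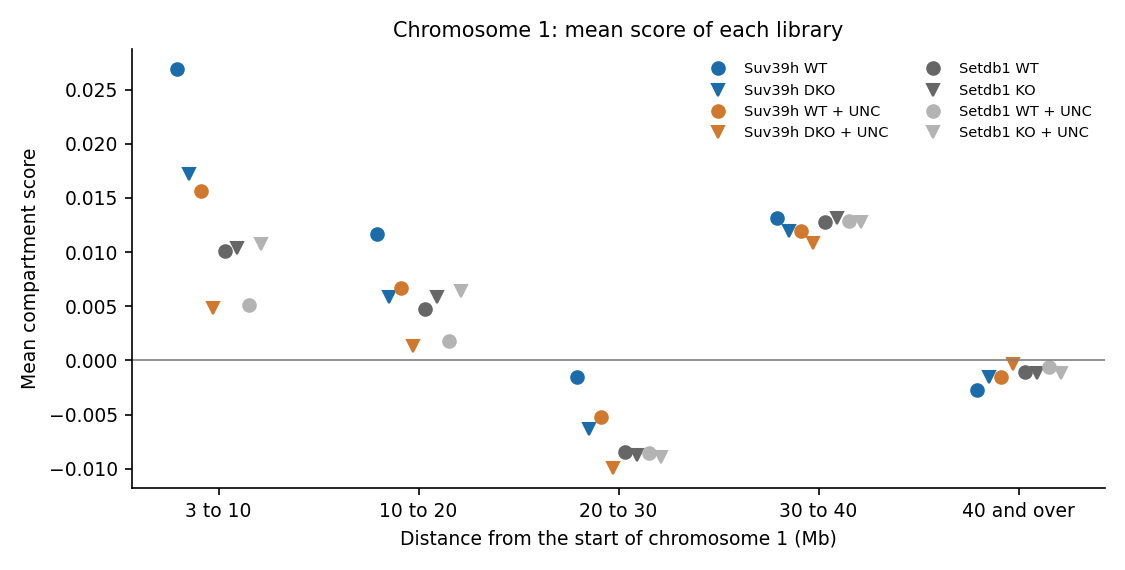
Mean compartment score of each of the 8 libraries along chromosome 1, by distance from the chromosome start in Mb. Suv39h WT, the filled circle at the left of each group, is the highest library from 3 to 30 Mb, and the libraries come together from 30 to 40 Mb.

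The share of bins that changed by 0.01 or more differed between chromosomes. It ran from 1.91% on chromosome 2 to 16.4% on chromosome 13, with a median over autosomes of 7.92%. Chromosomes 5 and 8 were also low, at 2.02% and 2.14%, and chromosomes 14, 11, 18 and 1 high, at 12.6%, 11.1%, 10.8% and 10.3%. The order resembled that in the UNC0642 pair, where chromosome 5 (1.75%) was lowest and chromosome 18 (12.8%) highest (Spearman rho = 0.870 over 19 autosomes). Between Suv39h WT and Setdb1 WT, which shares Suv39h WT with the untreated pair, the share was 2.93% on chromosome 2 and 27.9% on chromosome 13. Score sizes also differ between chromosomes, so a fixed step of 0.01 is not the same step on each, and the part of score size in these shares was not tested. Switches were most common on chromosome 1, at 8.47% of bins, and least common on chromosome 8, at 2.69%.

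**Figure D4:**
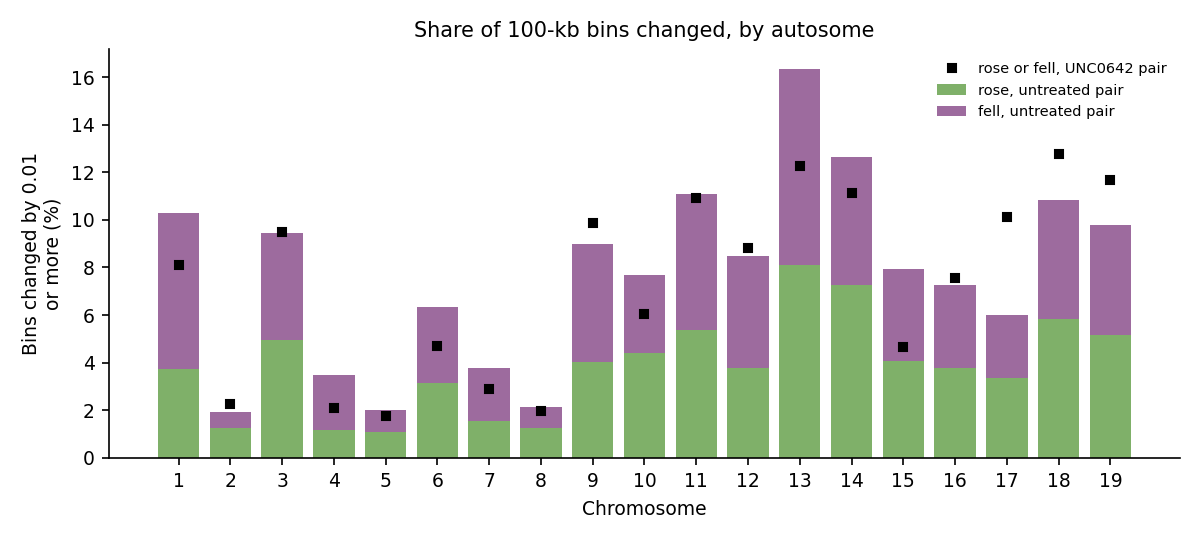
Share of 100-kb bins per autosome that rose or fell by at least 0.01 in the untreated pair (stacked bars) and that changed by that step in the UNC0642 pair (squares). Chromosomes 2, 5 and 8 lie near 2% and chromosome 13 at 16.4% in the untreated pair.

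Gene content separated the bins little. Bins without a protein-coding gene start (13937 bins) had a mean change of 3.3e-05, and 3.98% of them rose and 3.78% fell. Bins with 2 to 3 starts had a mean change of -0.000181, below 0 on 15 of 19 autosomes. In bins with 8 or more starts it was 0.000281, above 0 on 9 of 18 autosomes with such bins, and 3.08% rose and 2.31% fell. The signs for bins without a start and with 8 or more depended on the scaling, and turned to -0.000472 and -0.000322 on adding the implied mean. Of the 20738 protein-coding genes that start in a member bin, 668 (3.22%) lay in a bin that rose and 684 (3.30%) in one that fell.

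The longest rising run covered 7 bins at chr13:70600001-71300000, where the mean score went from -0.0110 in Suv39h WT to 0.00259 in Suv39h DKO. It holds the starts of Ice1, a subunit of the little elongation complex, which promotes transcription of small nuclear RNA genes, and Adamts16, a secreted metalloprotease. In the UNC0642 pair the same bins went from -0.00638 to 0.00170. The next run, chr19:23200001-23600000, holds Smc5, which encodes a core subunit of the SMC5/6 complex, and Mamdc2. It went from -0.00498 to 0.00788, but from -0.00423 to -0.00494 in the UNC0642 pair.

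The longest falling runs lay at the start of chromosome 1. The run chr1:3600001-4200000 holds the start of Xkr4, a membrane protein of the XK family, and fell from 0.0455 to 0.0289, and from 0.0284 to 0.00741 in the UNC0642 pair. The run chr1:4300001-4900000 holds the starts of 6 genes, among them Rp1, a photoreceptor gene, Sox17, the endoderm transcription factor, and Mrpl15, a mitochondrial ribosomal protein. It fell from 0.0457 to 0.0297, and from 0.0294 to 0.0137 in the UNC0642 pair. These rising runs began in B, were poor in repeats (25.6% and 23.5% of bases) and had GC contents of 43.1% and 41.3%. The falling runs were in A, richer in repeats (44.7% and 38.5%) and had GC contents of 38.7% and 40.6%.

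The middle 300 bases of these 4 runs are shown to let the composition be seen (GRCm38, the build of mm10, plus strand, with bases outside marked repeats in capitals). The stretch at chr13:70949851-70950150 is intergenic in GENCODE, has 41.0% GC and is 15.0% repeat.
Rising run, chromosome 13: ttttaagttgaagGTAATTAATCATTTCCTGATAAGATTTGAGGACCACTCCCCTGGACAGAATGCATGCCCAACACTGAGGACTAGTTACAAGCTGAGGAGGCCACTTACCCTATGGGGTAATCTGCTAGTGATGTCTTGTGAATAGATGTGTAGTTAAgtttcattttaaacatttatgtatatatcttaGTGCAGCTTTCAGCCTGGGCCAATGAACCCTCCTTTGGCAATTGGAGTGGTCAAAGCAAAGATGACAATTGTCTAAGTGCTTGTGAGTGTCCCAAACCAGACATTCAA
The stretch at chr19:23399851-23400150 lies in an intron of Mamdc2, has 45.7% GC and holds no marked repeat.
Rising run, chromosome 19: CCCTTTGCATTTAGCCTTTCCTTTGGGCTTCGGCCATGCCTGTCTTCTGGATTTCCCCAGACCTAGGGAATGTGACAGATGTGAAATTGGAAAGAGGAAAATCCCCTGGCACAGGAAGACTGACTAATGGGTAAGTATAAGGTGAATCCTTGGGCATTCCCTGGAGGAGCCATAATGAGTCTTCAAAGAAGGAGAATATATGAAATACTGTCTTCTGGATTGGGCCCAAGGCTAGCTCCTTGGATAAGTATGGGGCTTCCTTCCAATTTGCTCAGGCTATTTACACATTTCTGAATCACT
The stretch at chr1:3899851-3900150 is intergenic, has 31.3% GC and is 30.3% repeat.
Falling run, chromosome 1 near Xkr4: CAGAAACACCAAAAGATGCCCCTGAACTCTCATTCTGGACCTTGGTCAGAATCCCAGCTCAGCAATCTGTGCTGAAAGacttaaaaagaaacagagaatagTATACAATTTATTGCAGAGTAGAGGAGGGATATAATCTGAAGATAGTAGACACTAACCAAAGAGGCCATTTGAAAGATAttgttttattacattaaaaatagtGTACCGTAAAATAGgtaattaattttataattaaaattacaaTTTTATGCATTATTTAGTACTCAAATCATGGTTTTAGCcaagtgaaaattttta
The stretch at chr1:4599851-4600150 is intergenic, has 51.7% GC and is 38.3% repeat.
Falling run, chromosome 1 near Sox17: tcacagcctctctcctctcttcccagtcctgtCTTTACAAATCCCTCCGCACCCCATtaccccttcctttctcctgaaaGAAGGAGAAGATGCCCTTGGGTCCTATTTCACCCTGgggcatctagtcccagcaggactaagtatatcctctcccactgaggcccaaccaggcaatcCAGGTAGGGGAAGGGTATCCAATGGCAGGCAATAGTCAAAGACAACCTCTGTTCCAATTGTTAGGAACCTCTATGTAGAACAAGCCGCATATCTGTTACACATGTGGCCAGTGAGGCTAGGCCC
A stretch this short need not have the composition of its run, and the last one is richer in GC than the run around it.

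The other 8 of the 10 longest rising runs held 3 bins each. The run chr9:116000001-116300000, with the start of the TGF-beta receptor gene Tgfbr2, rose from -0.0107 to 0.00450 and crossed into A. With UNC0642 it went from -0.00494 to 0.00253. The run chr13:68700001-69000000, with the adenylate cyclase gene Adcy2, rose from -0.0212 to -0.00760 and stayed in B. It was the only one of the 10 whose mean change also reached 0.01 in the UNC0642 pair, at 0.01004.

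The run chr14:28500001-28800000, with the start of the secreted signalling gene Wnt5a, rose from -0.00370 to 0.0105. In the UNC0642 pair its mean change was 0.000384. The run chr3:90500001-90800000 holds 16 gene starts, among them Chtop and the S100 calcium-binding proteins, and rose from 0.0213 to 0.0340 within A. Its mean change was 0.00144 in the UNC0642 pair. The remaining runs hold Wscd1 (chr11:71500001-71800000, mean change 0.0145), the glutamate receptor gene Grin2a (chr16:9800001-10100000, 0.0133), Ttc39c (chr18:12400001-12700000, 0.0132) and the water channel gene Aqp4 (chr18:15200001-15500000, 0.0119). In the UNC0642 pair 8 of the 10 rising runs had a mean change above 0.

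Of the 10 longest falling runs 7 lay on chromosome 1. Besides those named, chr1:3200001-3500000, within Xkr4, fell from 0.0480 to 0.0314. The run chr1:6100001-6400000, with the autophagy gene Rb1cc1 and Alkal1, fell from 0.0336 to 0.0138. The run chr1:13200001-13500000, with the nuclear receptor coactivator gene Ncoa2, fell from 0.0311 to 0.0129.

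The remaining runs of chromosome 1 lay further along. The run chr1:18000001-18400000, with Crisp4 and the beta-defensins Defb18 and Defb41, fell from 0.0105 to -0.00237 and left A. The run chr1:21100001-21500000, with Tmem14a, Gsta3 and the Khdc1 genes, fell from 0.0175 to 0.00298.

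Away from chromosome 1, chr13:63700001-64200000, with Ercc6l2, Hsd17b3 and Slc35d2, fell from 0.0405 to 0.0258, and from 0.0332 to 0.0308 in the UNC0642 pair. The run chr14:4900001-5300000, in a cluster of similar predicted genes beginning with Gm8297, Gm3298 and 4930555G01Rik, fell from -0.0583 to -0.0805, whereas its mean change in the UNC0642 pair was 0.00760. The run chr9:35900001-36200000, with 9230113P08Rik and Gm5916, fell from -0.0257 to -0.0425. In the UNC0642 pair 9 of the 10 falling runs had a mean change below 0, and 5 of them, all on chromosome 1, fell by 0.01 or more. The other two on chromosome 1, at Ncoa2 and at Tmem14a to Khdc1b, had -0.00212 and -0.00384. Suv39h WT was the highest of the 8 libraries in 8 of the 10 falling runs, and Suv39h DKO the highest in 7 of the 10 rising runs. Selecting on the difference favours such extremes.

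The longest runs that switched were 400 kb or shorter. From B to A, they were chr13:72100001-72500000, without a gene start (-0.00724 to 0.00260), chr14:29400001-29800000 with the calcium channel subunit gene Cacna2d3 (-0.00443 to 0.00454) and chr6:147300001-147700000 with Ccdc91 (-0.00367 to 0.00373). All 3 also lay below 0 in Suv39h WT + UNC and above 0 in Suv39h DKO + UNC. From A to B, the 3 longest were all on chromosome 1, at chr1:22600001-23000000 with the synaptic gene Rims1 (0.00196 to -0.00865), chr1:18500001-18800000 without a gene start (0.00310 to -0.0105) and chr1:18100001-18400000 with Crisp4, Defb18 and Defb41 (0.00861 to -0.00366). In Suv39h WT + UNC these 3 were below 0.

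The single bins with the largest changes lay deep in B, in repeat-rich sequence and often in clusters of near-identical genes. The largest fall, at chr14:3200001-3300000 with D830030K20Rik, went from -0.0399 to -0.0893, and from -0.0694 to -0.0718 in the UNC0642 pair. At chr12:19500001-19600000, without a gene, the score went from -0.0313 to -0.0711, and from -0.0310 to -0.0312. At chr7:22500001-22600000, with the vomeronasal receptor gene Vmn1r152, it went from -0.0356 to -0.0695, and from -0.0602 to -0.0487. None of the 3 fell by 0.01 in the UNC0642 pair.

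The largest rise, at chr6:123500001-123600000 with Vmn2r21, went from -0.0935 to -0.0535, and Suv39h DKO + UNC had no score there. The next, at chr14:6000001-6100000 with Gm6337 and Gm8206, went from -0.0656 to -0.0307, but from -0.0292 to -0.0579 in the UNC0642 pair. The one after, at chr3:15600001-15700000 without a gene, rose from -0.0696 to -0.0373, and from -0.0643 to -0.0492 in the UNC0642 pair. Repeats made up 44.5% to 66.03% of these 6 bins, against a median of 31.7% over all bins. In the 90 bins beside an unscored bin or a chromosome end, 21.1% changed by 0.01 or more, against 7.35% of the others, but 0 changed by 0.02 or more, against 0.301%, so none of the 6 lies beside a gap. The authors removed reads of low mapping quality, which near-identical copies give, and the scores do not show how many reads lie behind a bin.

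Over all 875 rising bins the median score went from -0.00930 to 0.00417, and over all 900 falling bins from 0.00318 to -0.0102. Rising bins had a median GC content of 42.5% and 30.02% repeats, and falling bins 40.4% and 34.5%. In the UNC0642 pair the rising bins had a median change of 0.00214 and 62.7% of them were above 0, against 50.9% of all bins. The falling bins had a median change of -0.00255 there. The bins that rose in both pairs numbered 84, which is 9.61% of those that rose without and 11.8% of those that rose with UNC0642. Of the bins that rose without it, 34 (3.89%) fell with it. Those that fell in both numbered 122, or 13.6% and 13.2%, and 26 (2.90%) of the bins that fell without it rose with it. Of all bins, 2.98% rose and 3.86% fell there.

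Among the genes of the H3K9 methylation machinery, 1 of 23 scored genes lay in a bin that rose and 0 in one that fell, and the median change was 0.000298. Over all protein-coding genes, 3.22% rose and 3.30% fell and the median change was -4.1e-05, beside which the counts of this and the following lists stand. Prdm2, a member of the PR domain family, rose from 0.00712 to 0.0184, and from 0.00804 to 0.0192 in the UNC0642 pair. The lowest change was that of Ehmt1, which encodes GLP, from 0.0330 to 0.0287. Suv39h2 itself lay in A in both libraries, at 0.00734 and 0.00598.

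Of the 21 core pluripotency genes 2 (9.52%) rose and 1 (4.76%) fell, against 3.22% and 3.30% of all genes, with a median change of -0.000447. Klf4, a reprogramming factor, rose from 0.00709 to 0.0180 and went from 0.0140 to 0.0208 in the UNC0642 pair. Lin28a, an RNA-binding regulator of let-7, fell from 0.0421 to 0.0317 and went from 0.0326 to 0.0310 in the UNC0642 pair. Of 26 lineage regulators 0 rose and 1 (3.85%) fell, near the share of all genes, with a median change of 0.000478. The gene that fell was Sox17, from 0.0473 to 0.0317 and, with UNC0642, from 0.0286 to 0.0135. The highest change of that list was 0.00767, at Eomes.

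Of 25 germline genes 0 rose and 1 (4.00%) fell, again near it, with a median change of 0.000965. The meiotic gene Hormad1 fell from 0.0479 to 0.0371, with a change of -0.00163 in the UNC0642 pair, and the piRNA helicase gene Mov10l1 had the highest change, 0.00724. The two-cell-stage genes, which mESCs transcribe in rare cells, were mostly in B. Of 22 scored genes in 19 bins, 3 lay in A in Suv39h WT and 6 in Suv39h DKO, and the median change was 0.000741. Those that rose were Tdpoz1 and Tdpoz2, which share 1 bin, from -0.00497 to 0.00530 and, with UNC0642, from -0.00662 to 0.00371. Zscan4e, with the lowest change, went from -0.0216 to -0.0308.

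Of 35 imprinted genes in 30 bins 0 rose and 0 fell (3.22% and 3.30% of all genes), and 23 of them had a change above 0, as did 10291 of the 20738 genes. Their median change was 0.00227, or 0.00146 over the bins. The extremes were Impact (0.00935) and Mkrn3 (-0.00545). The median in the UNC0642 pair was 0.000999. Of 72 ribosomal protein genes, 68 lay in A in Suv39h WT, where the median score was 0.0401, and 69 in Suv39h DKO. Among them Rpl8 rose from 0.0373 to 0.0491 and Rpl34 fell from 0.0431 to 0.0295. With UNC0642 both changed by less than 0.001, at -0.000204 and -0.000278.

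Clustered gene families share bins, so bins are the unit there, to be read against the 3.65% of all bins that rose and the 3.75% that fell. The 1128 olfactory receptors occupied 333 bins, of which 9 rose and 7 fell. Of the 96 bins with vomeronasal type 1 receptors 7 rose and 3 fell, and of the 93 with type 2 receptors 3 rose and 10 fell. Type 2 receptor bins had a median change of -0.000793, and -0.00157 in the UNC0642 pair. The largest rise and fall of these families were at Olfr750 (0.0172) and Olfr434 (-0.0163), at Vmn1r90 (0.0152) and Vmn1r152, and at Vmn2r21 and Vmn2r35 (-0.0233).

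The 380 scored Zfp zinc finger genes occupied 279 bins, of which 12 rose and 8 fell, with extremes at Zfp873 (0.0172) and Zfp993 (-0.0253). Zfp873 went from -0.000547 to 0.0166, and had a change of -0.00235 in the UNC0642 pair. Among the 57 clustered protocadherins, 11 genes of 1 bin fell, Pcdhb10 among them (from 0.0212 to 0.00812, and from 0.0205 to 0.0118 with UNC0642), and Pcdhgb2 had the highest change (0.00752). The 39 Hox genes, in 9 bins and all in A in both libraries, had 0 rises and 0 falls and changes from -0.00551 at Hoxb13 to 0.00802 at Hoxb9.

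Keratin and keratin-associated genes occupied 36 bins, of which 1 rose (Krt9, 0.0105) and 1 fell (Krtap16-1, -0.0126). Of 22 defensin bins 1 rose and 3 fell, with extremes at Defa34 (0.0158) and Defb30 (-0.0125). Of 55 genes of 1 Mb or longer, 12 of which lay in A in both libraries, Ctnna3 rose by 0.0108, and 2 fell, with Asic2 lowest at -0.0106.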

How the data were processed

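Compartment scores were made and deposited by the authors, 1 set of values per group. Fixed chromatin was cut with DpnII, the 4D Nucleome pipeline aligned reads to mm10, alignments of low mapping quality were removed, contact maps were built with Juicer Tools (Juicer in the submitters' processing notes), and the first eigenvector of each KR-normalised autosome was taken in 100-kb bins. Scores have no physical unit. Hi-C was repeated in the study, but which repeat or pool each file holds is not given in the sources used here. The score files carry no depth, and the read totals that the study lists per repeat were not used here, since the repeat is not given. No floor or interval that needs depth is given. Scores of each chromosome average 0 in each library, so a rise of a whole chromosome cannot appear.

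From the deposited scores, differences between libraries were computed in Python 3.11.15 with pandas 2.3.3 and numpy 2.4.6. Wilson intervals came from scipy 1.17.1. Positive scores were called A, and a change of at least 0.01 a rise or fall. GC content and soft-masked repeats were read from GRCm38.p6, whose coordinates are those of mm10, and genes from GENCODE vM21, a gene taking the score of the bin holding its start. Named regions were the 10 longest runs of at least 2 adjacent bins that rose or fell, the 3 longest that switched each way, the 3 largest single-bin changes each way, and the extreme members of each gene list in either direction. Members and lists were chosen with earlier results of these data known. The counting was tested on simulated scores. Alternatives were the implied chromosome mean added or subtracted, scaling, quantile normalization, residuals of a linear fit, 500-kb means (at least 3 of 5 bins scored), a step of 0.02, bins of at least 0.005, other classes, gene overlap, and chromosome 1 left out. The last, for the counts, and all alternatives for GC and repeat quintiles were added after seeing the data.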

Additional observations from a re-analysis of the deposited data

Results flagged for a closer look

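Among the named runs 3 of 26, among the single bins 2 of 5 scored in both pairs, and among the extreme members of the gene lists 14 of 31 changed in opposite directions without and with UNC0642. They were chosen for their size without UNC0642. The difference between the pairs was not tested, as each side has 1 library. The rising runs near Smc5 on chromosome 19 and at Ttc39c on chromosome 18 had mean changes of 0.0129 and 0.0132 without UNC0642 and of -0.000717 and -0.000206 with it. The falling run at Gm8297 on chromosome 14 had -0.0222 and 0.00760. The single bin at Vmn1r152 on chromosome 7 had -0.0339 and 0.0115, and the bin at Gm6337 on chromosome 14 had 0.0349 and -0.0287. These last 3 lie in repeat-rich sequence, with 58.3%, 66.03% and 61.8% of bases marked as repeats.

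Of the genes with the lowest change of their list, the change was -0.00551 and 0.00465 at Hoxb13, -0.0125 and 0.00258 at Defb30, -0.0126 and 0.0102 at Krtap16-1, -0.0163 and 0.00197 at Olfr434, and -0.0106 and 0.00696 at Asic2. It was -0.0233 and 0.00752 at Vmn2r35 and -0.0253 and 0.00143 at Zfp993, and Vmn1r152 is given above. Of those with the highest change, it was 0.0158 and -0.00542 at Defa34, 0.00724 and -0.00276 at Mov10l1, 0.0105 and -0.00243 at Krt9, 0.0172 and -0.00458 at Olfr750, 0.0118 and -0.000204 at Rpl8, and 0.0172 and -0.00235 at Zfp873.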

How the results depend on the processing

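The called counts, the switch shares, the means of the main score, distance, gene-start, GC and repeat classes and the named runs were recomputed under the alternatives. Correlations, borders, shares by chromosome, nested compositions and gene lists were not. Rising and falling bins numbered 10 and 20 with 500-kb means and 27 and 45 at a step of 0.02, and stayed within 1.5 times the counts of 875 and 900 otherwise. Bins going from B to A made up 2.68% with the implied mean added, 3.19% with it subtracted, 2.28% after quantile normalization, 2.10% with 500-kb means and 0.928% among bins of at least 0.005 in size. The shares from A to B were 2.56%, 1.39%, 2.28%, 0.770% and 0.513%, and 1.52% without chromosome 1. With quantile normalization the 2 shares were equal.

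In the class under -0.03 the mean change was -0.000158 with the mean added, -0.000135 as a residual and -0.000881 with Setdb1 WT classes. At -0.01 to 0 it was -9.69e-05 with the mean added and -0.000397 after quantile normalization, and at 0 to 0.01 it was -9.91e-05 after quantile normalization. At 0.03 to 0.05 it stayed below 0, at -0.000692 after quantile normalization, -0.000734 as a residual and -0.000652 with Setdb1 WT classes. At 80 Mb and over from the start it was -9.55e-05 with the mean added. In bins without a gene start it was -0.000472 after adding, 0.000538 after subtracting and -0.000129 as a residual, and in those with 8 or more starts -0.000322 with the mean added. In the highest GC quintile it was -0.000105 with the mean added. In the lowest repeat quintile adding gave 0.000261 and subtracting 0.00132, and in the fourth repeat quintile 6.92e-05 with it subtracted. The means in the lowest GC and the highest repeat quintile, among those recomputed, kept their direction under every alternative run, the latter at -0.000143 with the mean subtracted. No named run changed direction under a scaling, and in the UNC0642 pair 3 did, at -0.000717, -0.000206 and 0.00760. The cause of these shifts was not tested.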
